A study of Mus musculus with 9 samples.

Results

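The insulin-like growth factor (IGF) axis was followed through 10 genes of the 30407 that both experiments of the study share: the ligands Igf1 and Igf2, the receptor Igf1r, the adaptors Irs1 and Irs2, and the binding proteins Igfbp2, Igfbp4, Igfbp5, Igfbp6 and Igfbp7. They were matched by gene symbol in the deposited feature lists, and the set was chosen with earlier results of these data known. Of the 10 genes, 9 had at least 1 UMI (a unique molecular identifier, which marks one captured RNA molecule) in the cells kept, and 8 passed the filter on low counts. The cells were NIH3T3-CG, which the labels give as embryonic fibroblasts of the mouse, profiled with droplet-based single-cell 3′ RNA sequencing after exposure to SAG, an agonist of the Hedgehog signal transducer Smoothened. Experiment 2 held 3 libraries with Dox at 0, 19 and 30 h of SAG and 3 libraries without Dox at the same times. Experiment 1 held 3 libraries at 0, 17 and 30 h of SAG, whose labels do not mention Dox and which were taken as without it. All groups share the NIH3T3-CG line, each combination of experiment, Dox and time is 1 library, and what Dox switches on is not named in the labels. No library without SAG was taken at the later times, so the effect of SAG cannot be told apart from that of time in culture.

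IGF1 and IGF2 are secreted peptides that bind the receptor tyrosine kinase IGF1R, which phosphorylates the docking proteins IRS1 and IRS2 and so reaches the PI3K-AKT and MAPK pathways. In the extracellular space the peptides are held by IGF-binding proteins, which carry them, keep them from the receptor or release them when proteases cut the binding protein. Fibroblasts are a main local source of IGF1, IGF2 and binding proteins in connective tissue, and cultured fibroblasts need IGF signals to proliferate.

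Cells were kept from 5000 UMIs upward where mitochondrial genes took no more than 10% of them, and they numbered 571 to 6520 per library, with 19422658 to 106128757 UMIs in all and a median of 8025 to 48188 UMIs per cell. The library without Dox at 19 h stood apart by the lowest median depth. In the libraries at 30 h without Dox, 19 h with Dox and 30 h with Dox of Experiment 2, 17.9 to 19.7% of kept cells had under 1% mitochondrial UMIs, against 0.43 to 1.41% in the other 6 libraries. All 9 fibroblast markers were detected in each library and summed to 6346 to 11872 CPM, while hepatocyte and skeletal muscle markers summed to at most 0.0505 CPM. Smooth muscle or myofibroblast markers summed to 125 to 492 CPM, chondrocyte or osteoblast markers to 6.98 to 66.9 CPM and adipocyte markers to 5.20 to 17.0 CPM. Immune markers summed to 0.747 to 12.5 CPM, endothelial to 0.294 to 1.39 CPM and epithelial to 0.0801 to 0.547 CPM. Any pair of libraries shared 0 to 9 barcodes of kept cells. Gli1, a direct transcriptional target of the Hedgehog pathway, was at 0.133, 19.6 and 25.6 CPM at 0, 19 and 30 h with Dox and at 0.0505, 8.11 and 16.7 CPM without Dox in Experiment 2. In Experiment 1 it was at 0.206, 7.90 and 3.98 CPM at 0, 17 and 30 h in Experiment 1. Levels are given throughout as CPM, the usual scaling of counts to a fixed library total, summed over cells and scaled by the TMM factors of edgeR. Without that scaling the median gene shifted by 0.52 on the log2 scale between 30 h and 0 h without Dox in Experiment 2, and by 0.41 between the same times with Dox. From such sums, fewer cells making an RNA and less RNA per cell cannot be told apart.

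Because the samples were exposed to a Hedgehog agonist, the stretches upstream of the genes' start sites were read for the sequence bound by GLI factors, the transcription factors at the end of the pathway. The 250 bases before each start were taken from the RefSeq promoter table (build GRCm38.p6), in which all 10 genes were found, with 14 starts in all. The windows of Igf1, Igfbp6 and Igfbp4 are printed since the RNA of these genes is described most fully. The Igf1 window lies at chr10:87860861-87861110, that of Igfbp6 at chr15:102143936-102144185 and that of Igfbp4 at chr11:99040994-99041243, all on the plus strand. The window of Igf1 lies inside the gene as placed by GENCODE vM21 (chr10:87858265-87937042), so its RefSeq start is downstream of the GENCODE start. Capitals mark the reverse complement GGTGGTC of the GLI core GACCACC in Igf1 and the TATA box TATAAA in Igfbp4, while the Igfbp6 window holds no GLI core and has no capitals.
Igf1: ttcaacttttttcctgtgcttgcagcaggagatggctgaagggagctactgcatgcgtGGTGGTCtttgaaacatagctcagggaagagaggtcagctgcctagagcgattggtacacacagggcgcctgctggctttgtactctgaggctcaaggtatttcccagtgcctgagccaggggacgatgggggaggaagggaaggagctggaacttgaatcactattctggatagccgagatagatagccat
Igfbp6: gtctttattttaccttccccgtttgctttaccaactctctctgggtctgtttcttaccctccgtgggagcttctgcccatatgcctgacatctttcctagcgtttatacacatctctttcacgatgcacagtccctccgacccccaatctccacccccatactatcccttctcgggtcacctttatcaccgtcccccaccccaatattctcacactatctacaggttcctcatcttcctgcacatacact
Igfbp4: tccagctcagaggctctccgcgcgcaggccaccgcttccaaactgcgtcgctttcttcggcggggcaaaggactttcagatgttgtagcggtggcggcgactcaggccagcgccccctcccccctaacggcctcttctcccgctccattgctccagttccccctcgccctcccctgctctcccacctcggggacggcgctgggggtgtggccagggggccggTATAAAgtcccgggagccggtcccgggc
The core was searched on both strands. It begins 192 bases before the RefSeq start of Igf1, on the reverse strand. The core also occurs in 1 of the 2 Igfbp2 windows, so that 2 of 14 windows held it, against 2.34% of all 32851 promoters. The longer site GACCACCCA, which contains the core, was found in 0 of 14 windows and in 0.225% of all promoters. The TATA box TATAAA, searched on both strands, was found in 2 windows, on the forward strand of Igfbp4 28 bases before the start and on the reverse strand of Igfbp6, against 12.4% of all promoters. CpG dinucleotides numbered 5 in the Igf1 window and 7 in the Igfbp6 window, against 42 for Igf1r, 34 for Irs2, 28 for Irs1, 26 for Igfbp7, 22 for Igfbp4 and a median of 6 over all promoters. A match is a description of letters and was not tested for binding.

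Igf1, the ligand of IGF1R, was scarce in all untreated libraries and more abundant at 30 h of SAG in all 3 sets of libraries. It was at 0.374, 4.63 and 6.79 CPM at 0, 19 and 30 h with Dox (14, 456 and 610 UMIs). Without Dox in Experiment 2 it was at 0.286, 1.22 and 1.81 CPM (17, 105 and 190 UMIs), and in Experiment 1 at 1.03, 1.53 and 1.85 CPM at 0, 17 and 30 h (35, 33 and 48 UMIs). The 30 h libraries, at 1.81 CPM and above, did not overlap with the 0 h libraries, at 1.03 CPM and below, a separation in the higher direction shown by 5.96% of the 13837 genes tested and by no other member. The libraries with Dox at 19 and 30 h were the highest of the 9. With cells of up to 20% mitochondrial UMIs the level at 17 h in Experiment 1 was 3.18 CPM, above that at 30 h (1.96 CPM), and the level at 0 h without Dox in Experiment 2 was 0.458 CPM.

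Over the 3 sets of libraries, 2 of the 8 members tested rose at 30 h of SAG against 0 h, Igf1 and Igfbp6, where 5.67% of genes changed and 1.98% rose. Igf1 averaged 3.49 ± 2.86 CPM at 30 h and 0.562 ± 0.405 CPM at 0 h (SD, n = 3 libraries each), a log2 change of 2.48 (SE 0.48, adjusted p = 0.0335 by the edgeR quasi-likelihood test). Igfbp6 averaged 774 ± 420 CPM at 30 h and 425 ± 222 CPM at 0 h (SD, n = 3 each), a log2 change of 0.80 (SE 0.19, adjusted p = 0.0426 by the same edgeR test). The median log2 change was 0.77 over the 8 members and 0.00 over all genes tested, and the fitted change was above 0 for each of the 8. Both calls rested on most of the libraries. Igf1 was no longer called without the 17 h library of Experiment 1, any of the 3 libraries without Dox of Experiment 2, or the 0 or 30 h library with Dox (edgeR adjusted p = 0.0561 to 0.235). Igfbp6 was no longer called without any of these or the 19 h library with Dox (edgeR adjusted p = 0.0705 to 0.265). Without the 0 h library of Experiment 1 the number of members called was 6, where 5994 of 13832 genes were called. Without its 30 h library the number was 7, where 3952 of 13795 genes were called. Without the block for the set of libraries, 0 were called (edgeR adjusted p = 0.681 for Igf1 and 0.747 for Igfbp6).

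**Figure D1:**
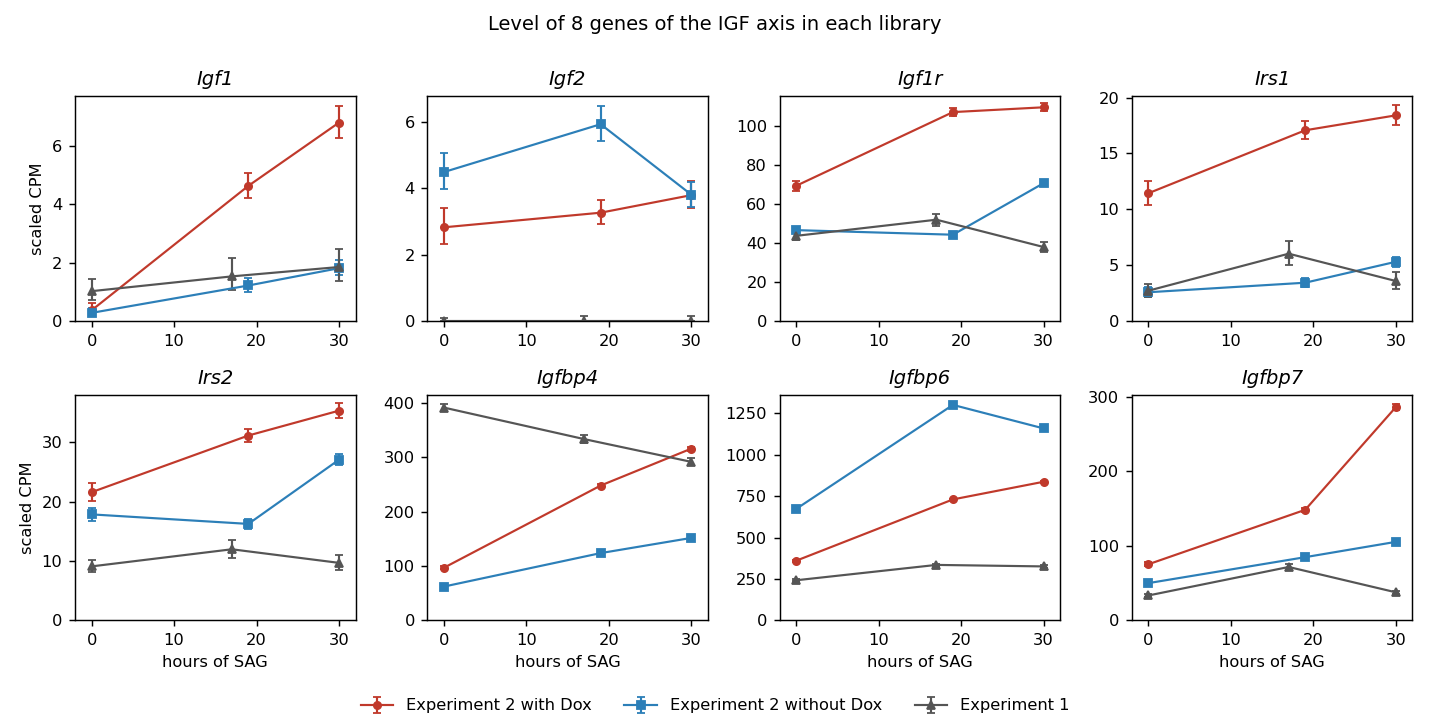
Level of the 8 members past the filter on low counts (vertical axis, CPM scaled by TMM, from 0) against hours of SAG (horizontal axis), with lines joining the 3 libraries of Experiment 2 with Dox, of Experiment 2 without Dox and of Experiment 1. Bars are exact Poisson 95% intervals and cover counting error only. Igf1 reaches 6.79 CPM at 30 h with Dox, Igfbp4 is lower at each later time in Experiment 1 and higher in Experiment 2, and Igf2 is at 0 in Experiment 1.

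The other 6 members tested did not pass at 30 h over the 3 sets. The adaptor Irs1 changed by 0.74 on the log2 scale (SE 0.21, edgeR adjusted p = 0.0629) and the adaptor Irs2 by 0.48 (SE 0.18, edgeR adjusted p = 0.102). Igfbp7, a secreted protein of low affinity for IGF, changed by 1.12 (SE 0.30, edgeR adjusted p = 0.0555). Igfbp4, which keeps IGF from its receptor, changed by 0.81 (SE 0.34, edgeR adjusted p = 0.129), Igf1r by 0.36 (SE 0.20, edgeR adjusted p = 0.235) and Igf2 by 0.09 (SE 0.25, edgeR adjusted p = 0.971). DESeq2 called Irs1 and Igfbp7 besides Igf1 and Igfbp6, and 13.6% of all genes.

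With the 2 experiments without Dox as the comparison, Igf1 was the 1 member of 8 called at 30 h against 0 h, where 0.446% of genes were called. It averaged 1.83 ± 0.03 CPM at 30 h and 0.657 ± 0.525 CPM at 0 h (SD, n = 2 libraries each). That call was lost with DESeq2 and with RLE factors (0 called by each), and without the 0 or 30 h library without Dox or the 19 or 30 h library with Dox of Experiment 2, and with no block for experiment. The median log2 change of the 8 members was 0.50 with all libraries. It was 0.78 without the 0 h library of Experiment 1 and 0.83 without its 30 h library. Over all genes these medians were 0.0151 and -0.000289. At 17 to 19 h edgeR called 0 of 8 members without Dox, where 0.111% of genes were called. DESeq2 also called 0, and 0.0488% of genes. By edgeR 4 members were at an unadjusted p under 0.05, as were 383 of all 14354 genes. Over the 3 sets edgeR again called 0 of 8 members at 17 to 19 h, where 0.0217% of genes were called. There 4 members were at an unadjusted p under 0.05, as were 1562 of all 13837 genes. DESeq2 called 2, Igf1 and Igfbp6, and 0.795% of genes. At that time Igf1 changed by 2.0 (SE 0.49, edgeR adjusted p = 0.213) and Igfbp6 by 0.80 (SE 0.19, edgeR adjusted p = 0.212). Without the 0 h library of Experiment 1, 4 members were called at 17 to 19 h over the 3 sets, where 2487 of 13832 genes were called. Without its 30 h library 2 members were called over the 3 sets, where 200 of 13795 genes were called.

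**Figure D2:**
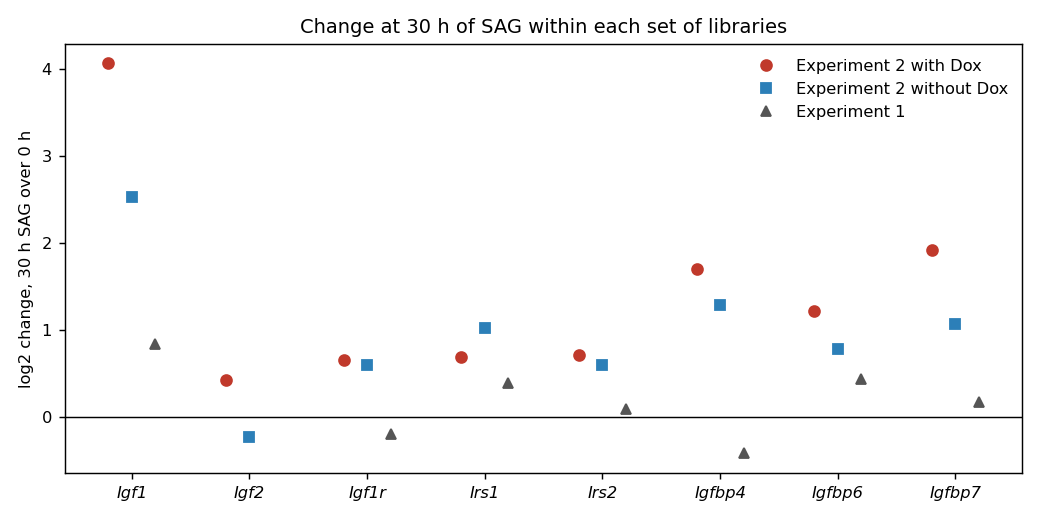
Log2 change of each member from 0 h to 30 h of SAG (vertical axis) within Experiment 2 with Dox, Experiment 2 without Dox and Experiment 1, 1 point per set of libraries. Igf1 and Igfbp6 lie above 0 in all 3 sets; Igf2 is not drawn for Experiment 1, where it had 0 UMIs.

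The size of the 30 h change differed between the experiments for 4 of 8 members, where 17.0% of genes were called and 9.36% in the higher direction. For Igf1 the change in Experiment 2 exceeded that in Experiment 1 by 2.63 on the log2 scale (SE 0.50, edgeR adjusted p = 0.000124). For Igfbp4 the difference was 1.92 (SE 0.29, edgeR adjusted p = 9.15e-07), for Igfbp7 1.34 (SE 0.29, edgeR adjusted p = 0.000624) and for Igf1r 0.83 (SE 0.27, edgeR adjusted p = 0.0269). This fit uses both sets of Experiment 2, of which 1 carries Dox, and assumes the same effect of Dox at each time. The difference between the experiments without Dox alone was smaller for Igf1 (log2 changes of 2.53 in Experiment 2 and 0.83 in Experiment 1). The Igf1r call was lost under 4 of the settings tried, among them DESeq2 (adjusted p = 0.13). It was also lost without the 0 or 30 h library without Dox or the 0 h library with Dox of Experiment 2 (edgeR adjusted p = 0.0888 to 0.36), and so was the Igfbp7 call without the 0 h library with Dox (edgeR adjusted p = 0.118). Gli1 showed a difference between the experiments in the same direction, of 3.65 (SE 0.86, edgeR adjusted p = 0.00174).

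Igfbp4 went in opposite directions in the 2 experiments. It was at 96.8, 248 and 316 CPM at 0, 19 and 30 h with Dox and at 62.2, 124 and 152 CPM without Dox in Experiment 2. It was at 391.7, 334 and 292 CPM at 0, 17 and 30 h in Experiment 1. The 30 h library had 3.27 times the level of the 0 h library with Dox (95% counting interval 3.15 to 3.38), 2.44 times without Dox in Experiment 2 (2.35 to 2.53) and 0.745 times in Experiment 1 (0.724 to 0.766). The level at 0 h in Experiment 1 was the highest of all 9 libraries.

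Igfbp6, a binding protein that prefers IGF2, was higher at both later times than at 0 h in each set. It was at 360.1, 730.0 and 837 CPM at 0, 19 and 30 h with Dox and at 673, 1301 and 1158 CPM without Dox in Experiment 2. It was at 242, 335 and 326 CPM at 0, 17 and 30 h in Experiment 1. The 30 h library had 2.32 times the level of the 0 h library with Dox (95% counting interval 2.28 to 2.37), 1.72 times without Dox in Experiment 2 (1.70 to 1.74) and 1.35 times in Experiment 1 (1.30 to 1.39). The sets themselves were far apart, so that the 30 h libraries as a group overlapped with the 0 h libraries.

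Igfbp7 was at 75.4, 149 and 287 CPM at 0, 19 and 30 h with Dox and at 50.1, 84.9 and 106 CPM without Dox in Experiment 2. It was at 33.5, 71.7 and 37.7 CPM at 0, 17 and 30 h in Experiment 1. In Experiment 2 it was highest at 30 h, and in Experiment 1 at 17 h, after which it was near its level at 0 h. Sox9, of the chondrocyte or osteoblast marker list, was higher alongside it at 30 h in both sets of Experiment 2 and lower in Experiment 1, at 66.7 CPM at 30 h and 22.3 CPM at 0 h with Dox, at 26.3 and 6.80 CPM at these times without Dox in Experiment 2, and at 19.4 and 24.6 CPM in Experiment 1. The other 4 markers of that list, Col2a1, Acan, Bglap and Ibsp, were at or near 0, at most 0.168 CPM at these times. In Experiment 1 the list summed to 24.7, 39.4 and 19.4 CPM at 0, 17 and 30 h, with 1 marker detected at 17 h. Like Igfbp7, it was highest there at 17 h. The part of such cells in the Igfbp7 result was not tested.

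The receptor gene Igf1r was at 69.5, 107 and 109.9 CPM at 0, 19 and 30 h with Dox and at 46.8, 44.4 and 70.9 CPM without Dox in Experiment 2. It was at 43.8, 52.1 and 38.1 CPM at 0, 17 and 30 h in Experiment 1. Its 19 h level without Dox was below the 0 h level after TMM scaling and above it without scaling (36.2 against 32.5 CPM). Irs1 was at 11.4, 17.1 and 18.4 CPM with Dox, at 2.59, 3.44 and 5.32 CPM without Dox in Experiment 2, and at 2.73, 6.04 and 3.59 CPM in Experiment 1. All 3 libraries with Dox stood above all 6 without it. Irs2 was at 21.6, 31.2 and 35.4 CPM with Dox, at 17.9, 16.3 and 27.1 CPM without Dox in Experiment 2, and at 9.10, 12.0 and 9.70 CPM in Experiment 1. Its 19 h level without Dox, too, lay above that at 0 h when left unscaled (13.2 against 12.4 CPM). An uncharacterised gene, Gm9747, covers 30.9% of the exonic bases of Irs1 on the opposite strand. The sources used here do not say how strand was handled in counting, so the Irs1 count is uncertain in that respect.

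With Dox, 8 of 8 members tested differed from the libraries without Dox of Experiment 2, where 38.4% of genes were called. Of these, 6 were higher and 2 lower, and the median log2 change was 0.86 over the members and 0.01 over all genes. The adaptor Irs1 differed most, at 15.6 ± 3.70 CPM with Dox and 3.78 ± 1.40 CPM without Dox (SD, n = 3 libraries each), a log2 change of 2.07 (SE 0.13, edgeR adjusted p = 2.29e-17). Igf1 was higher by 1.76 (SE 0.18, edgeR adjusted p = 2.07e-10), Igfbp7 by 0.94 (SE 0.14, edgeR adjusted p = 7.4e-07), Igfbp4 by 0.90 (SE 0.13, edgeR adjusted p = 7.69e-07), Igf1r by 0.82 (SE 0.13, edgeR adjusted p = 3.19e-06) and Irs2 by 0.53 (SE 0.12, edgeR adjusted p = 0.000449). Igfbp6 was lower with Dox, at 642 ± 250.1 CPM against 1044 ± 329 CPM without Dox (SD, n = 3 each), a log2 change of -0.74 (SE 0.15, edgeR adjusted p = 0.000103). Igf2 was lower by a log2 change of -0.50 (SE 0.14, edgeR adjusted p = 0.00522). The Dox and no-Dox libraries did not overlap for Irs1, as in 12.6% of genes in the higher direction, and for Igf2, as in 11.7% in the lower. At 30 h the Igf2 ratio was 0.997 (95% counting interval 0.860 to 1.15) and without TMM scaling Igf2 at 30 h was higher with Dox (4.47 CPM) than without (3.76 CPM).

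This comparison has 1 library for each time and treatment, so its error is the spread left after an additive model of time and Dox. Igfbp6 and Igf2 were no longer called without either 0 h library (edgeR adjusted p = 0.0523 and 0.0539 for Igfbp6, and 0.0547 and 0.0575 for Igf2). Igf2 was also not called without either 19 h library (edgeR adjusted p = 0.193 and 0.182) or without the cells under 1% mitochondrial UMIs (edgeR adjusted p = 0.0523). The 6 members that were higher were called under each alternative tried for this comparison. Transcripts of the G2 to M phase list, 10 genes of dividing cells, summed to 153 to 169 CPM with Dox and to 193 to 267 CPM without Dox, and their part in these differences was not tested.

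The ratio of the library with Dox to that without is given at each time with its counting error alone, since each is 1 library over 1 library. Igf1 with Dox was 1.31 times the level without Dox at 0 h (95% counting interval 0.596 to 2.82), 3.79 times at 19 h (3.06 to 4.73) and 3.74 times at 30 h (3.18 to 4.43). Irs1 with Dox was already 4.42 times the level without Dox at 0 h (3.67 to 5.35), 4.96 times at 19 h (4.38 to 5.63) and 3.46 times at 30 h (3.14 to 3.82). Igfbp7 with Dox was 1.51 times at 0 h (1.43 to 1.59), 1.75 times at 19 h (1.70 to 1.80) and 2.72 times at 30 h (2.66 to 2.78). Igfbp6 with Dox stayed below the level without Dox, at 0.535 times at 0 h (0.525 to 0.546) and 0.722 times at 30 h (0.716 to 0.729). Igf2 with Dox was 0.630 times the level without Dox at 0 h (0.498 to 0.791), 0.551 times at 19 h (0.478 to 0.635) and 0.997 times at 30 h (0.860 to 1.15).

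**Figure D3:**
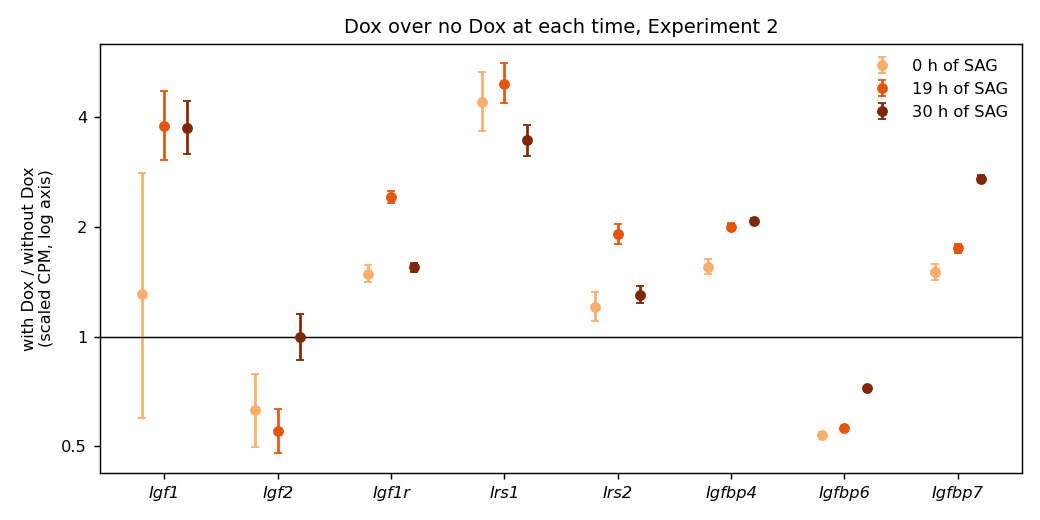
Ratio of the scaled CPM with Dox to that without Dox (vertical axis, log scale) for each member at 0, 19 and 30 h of SAG in Experiment 2, 1 pair of libraries per point. Bars are 95% counting intervals. Irs1 is 3.46 to 4.96 times higher with Dox at all times, Igf1 is near 1 at 0 h only, and Igfbp6 is below 1 throughout.

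The difference of the 30 h change with Dox from that without was tested as such, with both experiments pooled on the side without Dox. edgeR called 0 of 8 members, where 0.0% of genes were called, and DESeq2 called 0. By edgeR Igf1, Igfbp4 and Igfbp7 were at an unadjusted p under 0.05, as were 206 of all 14354 genes. For Igf1 the difference was 2.48 on the log2 scale (SE 0.69, edgeR adjusted p = 1.0), for Igfbp4 1.31 (SE 0.57, edgeR adjusted p = 1.0) and for Igfbp7 1.26 (SE 0.50, edgeR adjusted p = 1.0). The median difference of the 8 members was 0.64 with all libraries. It was 0.77 without the 0 h library without Dox of Experiment 2, where the median over all genes was 0.05. Set by set, the log2 change at 30 h of Igf1 was 4.07 with Dox, 2.53 without Dox in Experiment 2 and 0.83 in Experiment 1. For Igfbp4 it was 1.70, 1.28 and -0.42 in the same sets, and for Igfbp7 1.92, 1.07 and 0.17, so the 2 sets of Experiment 2 differ by less than the pooled values.

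Igf2, the ligand expressed mainly in fetal tissue, was detected in Experiment 2 alone. It was at 2.83, 3.27 and 3.80 CPM at 0, 19 and 30 h with Dox, at 4.49, 5.93 and 3.81 CPM without Dox, and at 0 UMIs in each library of Experiment 1, which allows levels of up to 0.0881, 0.139 and 0.116 CPM. Its 30 h level without Dox in Experiment 2 lay below that at 0 h after TMM scaling and above it without scaling (3.76 against 3.12 CPM). The 2 experiments were counted against different feature lists. Gm49394, a gene on the same strand that covers 62.8% of the exonic bases of Igf2 (chr7:142650769-142669942 in mm10), is listed in Experiment 1 and not in Experiment 2, and it had 0 UMIs in each library of Experiment 1. Its part in the gap was not tested, and the Igf2 levels of the 2 experiments are not comparable.

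Within Experiment 2 the Igf2 RNA was held by few cells. Cells with 5 or more Igf2 UMIs numbered 7, 23 and 23 at 0, 19 and 30 h with Dox and 15, 21 and 26 without Dox, 0.322 to 1.46% of kept cells, and they held 49.8 to 78.9% of all Igf2 UMIs of their library. One cell at 30 h with Dox had 50 Igf2 UMIs, while 94.7% of the cells of that library had none. For Igf1 the cells with 5 or more UMIs were at most 23, which was at 30 h with Dox, where they held 23.4% of its Igf1 UMIs. Igfbp2 had 1 UMI in all, at 19 h with Dox, and Igfbp5 had none in any library, which allows a level of up to 0.0286 CPM in the deepest library.

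Between the experiments without Dox, 5 of 8 members were called, where 40.5% of genes were called, and 4 of them can be read as a difference, since the fifth is Igf2. Igfbp6 was higher in Experiment 2, at 1044 ± 329 CPM against 301 ± 51.1 CPM in Experiment 1 (SD, n = 3 libraries each), a log2 change of 1.77 (SE 0.27, edgeR adjusted p = 6.91e-05). Irs2 was higher by 0.98 (SE 0.21, edgeR adjusted p = 0.00127) and Igfbp7 by 0.78 (SE 0.23, edgeR adjusted p = 0.0124), the last not without either 30 h library (edgeR adjusted p = 0.115 and 0.0822) nor with up to 20% mitochondrial UMIs (edgeR adjusted p = 0.0663). Igfbp4 was lower in Experiment 2, at 113 ± 45.8 CPM against 339 ± 50.2 CPM in Experiment 1 (SD, n = 3 each), a log2 change of -1.65 (SE 0.29, edgeR adjusted p = 0.000294). Igf1, Igf1r and Irs1 did not pass (edgeR adjusted p = 0.179, 0.348 and 0.788), although with up to 20% mitochondrial UMIs Igf1 was called as lower in Experiment 2 (edgeR adjusted p = 0.0499).

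The cultures of the 2 experiments differed in other ways that were measured and whose part was not tested. The G2 to M list summed to 193 to 267 CPM in Experiment 2 without Dox and to 343 to 475 CPM in Experiment 1, the smooth muscle or myofibroblast list, of which 5 of 5 genes were detected, to 368 to 482 CPM and 125 to 171 CPM. The immune list, of which 2 of 4 were detected, summed to 1.53 to 2.52 CPM and 9.81 to 12.5 CPM. Software versions in the matrix headers also differ with the experiment, so experiment, culture and counting cannot be told apart.

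Across single cells the shares of cells with a UMI were read after thinning each cell to 10000 UMIs, which leaves out 3910 of 6520 cells at 19 h without Dox and 16 to 321 cells elsewhere. Igf1 was found in 0.227, 5.01 and 6.998% of thinned cells at 0, 19 and 30 h with Dox, in 0.150, 1.53 and 2.30% without Dox in Experiment 2, and in 1.2, 0.552 and 2.68% at 0, 17 and 30 h in Experiment 1. Unthinned, the share at 30 h with Dox was 20.5%, and at 0 h 0.954%. These shares are small, and no cell type lacking Igf1 was present to give the share due to free RNA.

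Igfbp7 was found in 45.2, 73.5 and 83.7% of thinned cells at 0, 19 and 30 h with Dox, in 27.6, 44.6 and 53.3% without Dox in Experiment 2, and in 30.5, 37.6 and 28.4% in Experiment 1. Irs1 was found in 10.3, 17.5 and 20.01% with Dox, in 2.14, 3.26 and 5.86% without Dox in Experiment 2, and in 3.60, 6.26 and 2.33% in Experiment 1. Igfbp4 was found in 49.9, 84.5 and 87.2% with Dox, in 30.5, 53.1 and 66.0% without Dox in Experiment 2, and in 82.7, 75.3 and 72.6% in Experiment 1. In Experiment 1 the 30 h and 0 h shares of Irs1 and Igfbp7 did not differ beyond counting error. The 95% intervals at 30 h and 0 h were 1.24 to 3.94% and 2.49 to 5.02% for Irs1, and 24.7 to 32.4% and 27.6 to 33.6% for Igfbp7. In that experiment the level of Igfbp7 at 30 h was 1.12 times that at 0 h (95% counting interval 1.03 to 1.23). The level of Irs1 was 1.32 times (0.976 to 1.77), a difference within counting error. Igfbp6 was found in 87.4 to 99.4% of cells of each library, shares that likewise have no background to be set against. Of the 46 shares at 17 to 30 h that had a 0 h share to compare, over the 8 members past the filter, 39 were above that share, and 37 when cells were thinned to 5000 UMIs. Both later shares of a set were compared with the same 0 h library. The same count was not made over all genes, so these counts do not set the members apart.

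**Figure D4:**
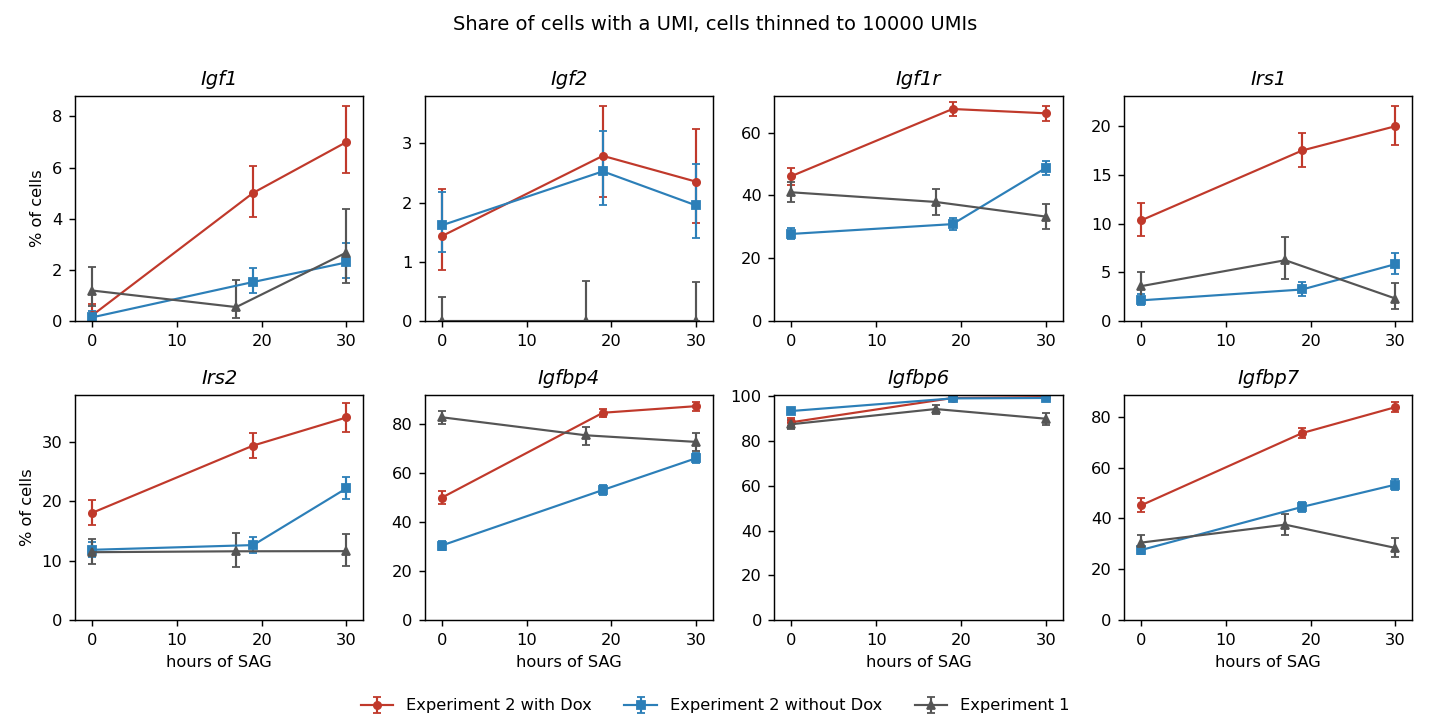
Share of cells with at least 1 UMI of each member (vertical axis, %) against hours of SAG, in cells thinned to 10000 UMIs. Bars are exact Clopper-Pearson 95% intervals for counting error. Igfbp7 and Igfbp4 reach 83.7 and 87.2% of cells at 30 h with Dox, and Igf1 6.998%.

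The spread between cells was read as the variance over the mean of thinned UMIs (the Fano factor, 1 for pure counting noise). That of Igfbp4 was 1.44 to 5.62 over the 9 libraries, where genes of like mean had medians of 1.07 to 1.43. It was highest in Experiment 1, at 5.59, 5.62 and 5.10 at 0, 17 and 30 h. For Igfbp6 it was 2.04 to 7.02, against medians of 1.27 to 2.33 for genes of like mean, and for Igfbp7 1.29 to 3.24, against 1.06 to 1.37. Igf1r, at 1.03 to 1.39, lay above 23.6 to 86.6% of genes of like mean, and Irs2, at 1.02 to 1.17, above 29.5 to 93.4%. Irs1 lay above 62.6 to 92.6% of such genes in the 5 libraries where it was frequent enough, and Igf1 above 97.5% and 98.1% at 19 and 30 h with Dox. Pairs of members were only weakly related from cell to cell, the highest median Pearson r over the 9 libraries being 0.22 for Igfbp6 with Igfbp7 (0.06 to 0.35). Next came Igfbp4 with Igfbp7, at 0.19 (0.04 to 0.38), and Igfbp4 with Igfbp6, at 0.17 (0.08 to 0.27). These values were not tested, and for the members with sparse counts weak values are no finding.

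In the 6 libraries treated with SAG, thinned cells with a Gli1 UMI (34 to 420 per library) were compared with those without (506 to 2423). Igf1r, Irs1 and Igfbp6 were higher in the Gli1-positive cells in 6 of 6 libraries, with median log2 ratios of 0.36, 0.33 and 0.19, where 5.32% of 8833 genes were higher in all 6. With cells thinned to 5000 UMIs this held for Igfbp7 alone, with a median of 0.46, where 3.02% of genes were higher in all 6. Igf1 was too scarce for the comparison, with 3 libraries higher and 3 lower. Irs1 was sparse in Experiment 1, with 36 UMIs in 543 thinned cells at 17 h and 14 UMIs in 559 at 30 h. Its direction in these libraries therefore rests on few UMIs.

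Cells with at least 5 UMIs of the G2 to M list (48 to 188 per library) were set against cells with none of that list or of the S phase list. Irs1 and Igfbp4 were lower in the G2 to M cells in 9 of 9 libraries, with median log2 ratios of -1.60 and -0.87, where 5.98% of 8761 genes were lower in all 9. For Irs1 the G2 to M cells held 1 to 8 UMIs per library. With 3 UMIs of the list as the threshold, Igfbp4 alone was lower in all 9, with a median of -0.54, where 4.67% of genes were lower in all 9.

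**Figure D5:**
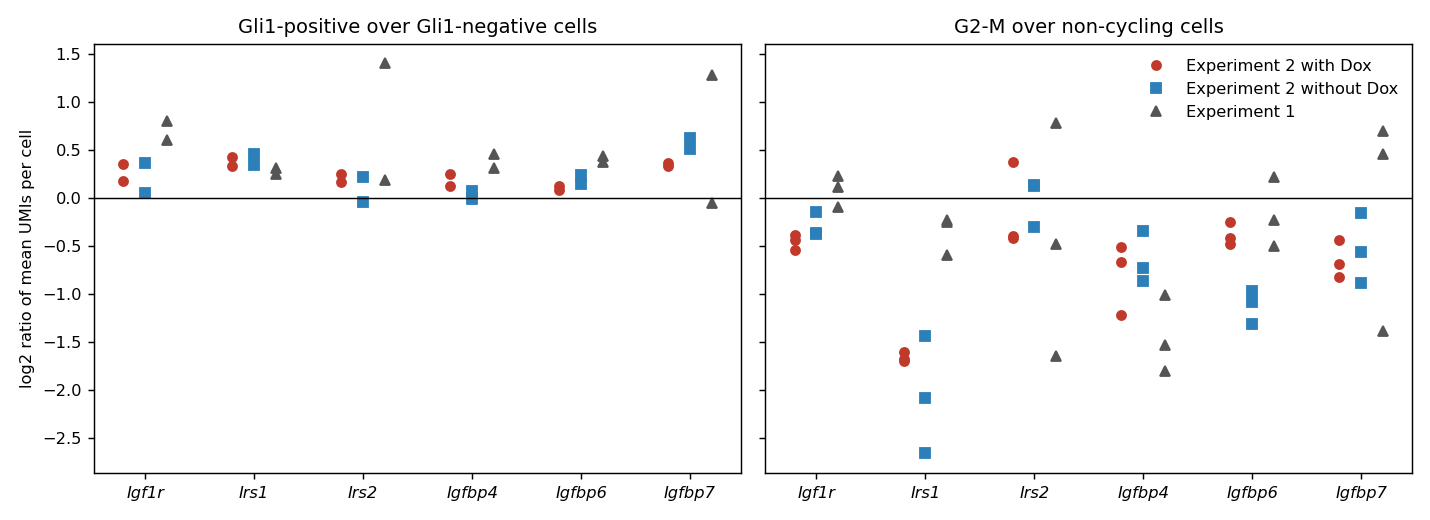
Log2 ratio of mean UMIs per thinned cell (vertical axis) for the 6 members with enough UMIs, Gli1-positive over Gli1-negative cells in the 6 libraries treated with SAG (left) and G2 to M over non-cycling cells in all 9 libraries (right), 1 point per library. Igf1r, Irs1 and Igfbp6 lie above 0 in all libraries on the left, Irs1 and Igfbp4 below 0 on the right.

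The genes whose levels followed each member most closely were found by Pearson r of log2 CPM less the mean of each set of 3 libraries, over the 9 libraries and the 6989 genes whose mean reached 10 CPM. For Igf1 they were Sept11 (r = 0.99), Szrd1 (r = 0.99) and Cdkn2aipnl (r = 0.98), for Igfbp6 Phf13, Pmp22 and Upf1 (r = 0.98 each), and for Igfbp4 they included Snrnp70 and Gpc1 (r = 0.99 each). For Igfbp7 they were Pgm3 (r = 0.97), Oaf and Nfia (r = 0.96 each), and for Igf1r Phf2 (r = 0.996), Kpna6 and Ncoa6 (r = 0.99 each). They were for Irs1 Ubap2, Arhgap5 (r = 0.99 each) and Wdr3 (r = 0.98), for Irs2 Eif5b, Crtc3 (r = 0.99 each) and Nbeal1 (r = 0.98), and for Igf2 Ttc33, Dynll1 (r = 0.92 each) and Caml (r = 0.91). Among members, r was 0.96 for Igf1 with Igfbp6, 0.93 for Igf1 with Igfbp4 and 0.96 for Igf1r with Irs2. Within Experiment 1, however, Igf1 and Igfbp4 moved in opposite directions at 30 h, with log2 changes of 0.83 and -0.42. So did Igf1r and Irs2, with log2 changes of -0.20 and 0.09. With Gli1, r was 0.97 for Igfbp6 and 0.92 for Igf1. All these points share library and depth, and the genes at the head were the closest of the 6989.

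Of the 64 other genes listed for the axis, 54 could be tested for SAG. At 30 h over the 3 sets 2 rose and 0 fell, against 1.98% and 3.69% of all genes: Akt1, a kinase downstream of PI3K, by 0.67 on the log2 scale (SE 0.12, edgeR adjusted p = 0.0302), and Ptpn11, a phosphatase that binds receptor complexes, by 0.65 (SE 0.15, edgeR adjusted p = 0.0416). Both calls were kept without the 0 or 30 h library of Experiment 1 and lost without any 1 of the other 7 libraries (edgeR adjusted p = 0.0515 to 0.271) and with no block (edgeR adjusted p = 0.681). The median change was 0.21 over the 54 genes, against 0.00 over all genes. At 30 h without Dox and at 17 to 19 h in both comparisons edgeR called 0 of the 54, with 5, 5 and 11 at an unadjusted p under 0.05. Among all genes tested, 1483 of 14354, 383 of 14354 and 1562 of 13837 were under that limit in the same comparisons.

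With Dox, 21 of 53 tested were higher and 7 lower than without Dox, against 19.2% of all genes in each direction. The PI3K regulatory subunits Pik3r1 and Pik3r3 were higher by 1.27 (SE 0.12, edgeR adjusted p = 1.59e-11) and 0.94 (SE 0.15, edgeR adjusted p = 2.67e-06), and the catalytic subunit Pik3cb lower by a log2 change of -0.83 (SE 0.12, edgeR adjusted p = 6.95e-07). Among proteins that act on binding proteins, the proteases Pappa, which cuts IGFBP4, and Pappa2 were higher, by 0.52 (SE 0.12, edgeR adjusted p = 0.000567) and 1.18 (SE 0.31, edgeR adjusted p = 0.00222). Stc2, an inhibitor of these proteases, and the protease Htra1 were lower, by log2 changes of -0.80 (SE 0.15, edgeR adjusted p = 6.51e-05) and -1.49 (SE 0.14, edgeR adjusted p = 2.83e-11). In Experiment 2 without Dox against Experiment 1, 6 of 54 were higher and 17 lower, against 20.6% and 19.9% of all genes. H19, the imprinted neighbour of Igf2, had 0 UMIs in the 3 libraries of Experiment 2 without Dox and 6, 0 and 10 UMIs at 0, 17 and 30 h in Experiment 1. The 30 h change was greater in Experiment 2 than in Experiment 1 for 11 of the 54 and smaller for 1, against 9.36% and 7.64% of all genes.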

How the data were processed

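The 9 libraries were made with the single cell 3′ v3.1 chemistry of 10x Genomics, per the labels' protocols. The authors deposited matrices of UMI counts per gene and barcode, made with Cell Ranger on mm10 per the submitters' processing notes. Per the file headers the software version was 3.1.0 in Experiment 1 and 6.0.1 in Experiment 2. The handling of strand in counting is not given in the sources used here. Features were joined by gene identifier (30407 of 31054 and 32286 shared), and all columns were assigned, with 0 from other samples. Cells were kept from 5000 UMIs upward with mitochondrial genes at 10% or less of them, and doublets were not called.

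UMI counts were summed per library and tested with edgeR 4.0.16 in R 4.3.3 (TMM factors, filterByExpr, quasi-likelihood F test, Benjamini-Hochberg adjustment over all genes tested, called under 0.05), with DESeq2 1.42.0 as an alternative. The SE is the size of the log2 change over the root of its F statistic. The SAG comparisons used all 9 libraries with experiment or set of libraries as a block, the Dox and experiment comparisons 6 libraries each, leaving 2 or 4 residual degrees of freedom. The fits were tested on simulated counts. The labelled experiment number marks libraries made together, and the differences between Experiment 2 and Experiment 1 at the 3 times correlated over 14354 genes with r = 0.68 to 0.79. The labels do not say whether libraries came from separate cultures, so the p-values speak only of how far these libraries scatter, and that scatter may be technical.

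Levels had been planned as CPM of total UMIs and are printed divided by the TMM factor, a choice made after the factors were seen. Intervals and floors (3 counts) cover counting error only. Genes named are the 10 members, Gli1, called genes of the axis list (otherwise the 2 of smallest p per group, of which not all are printed), the 3 genes closest to each called member, of which 1 is not reported here, and marker genes. The members, lists and tests were chosen with earlier results of these data known. Alternatives tried were other factors, no filter on low counts, other limits on UMIs and mitochondrial share, no block, other thinning depths and leaving out each library. Positions are those of GENCODE vM21 (mm10), and promoter sequences and their motifs are from the RefSeq table of GRCm38.p6. Figures were drawn with matplotlib 3.10.9.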

Additional observations from a re-analysis of the deposited data

Results flagged for a closer look

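The change at 30 h of SAG differed between the experiments by a test of the difference itself for 4 members, in each case with a greater change in Experiment 2 than in Experiment 1. The difference was 2.63 on the log2 scale for Igf1, 1.92 for Igfbp4, 1.34 for Igfbp7 and 0.83 for Igf1r. The test pools both sets of Experiment 2 and has 1 library per time in Experiment 1. For Igfbp4 the levels moved in opposite directions in the experiments. The 3 libraries with Dox are part of the Experiment 2 side, and within the sets the log2 change of Igf1 was 4.07 with Dox, 2.53 without Dox in Experiment 2 and 0.83 in Experiment 1. Dox, culture, time, SAG and counting cannot be told apart as sources of these differences.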

How the results depend on the processing

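The number of members called at 30 h without Dox (1) was 0 with DESeq2, with RLE factors and with no replicate block, and 0 to 2 when 1 library was left out. Over the 3 sets of libraries (2 called) it was 4 with DESeq2 and 6 with no filter on low counts, where 2212 of 20991 genes were called. The number was 0 with no replicate block (edgeR adjusted p = 0.681 for Igf1 and 0.747 for Igfbp6), and 0 to 7 when 1 library was left out. The other comparisons refitted without the block had 0 members called with it, so their numbers could not fall, and they stayed at 0. The comparisons for Dox, between the experiments and for the difference between them were not refitted without a block. At 17 to 19 h (0 called) it was 2 without Dox with up to 20% mitochondrial UMIs and 0 to 1 when 1 library was left out. Over the 3 sets it was 2 with DESeq2, 3 with no filter on low counts, where 186 of 20991 genes were called, and 0 to 4 when 1 library was left out. The number called for Dox (8) stayed within 6 to 8, that between the experiments (5) within 4 to 5, with Igfbp7 no longer and Igf1 newly among the 5 with up to 20% mitochondrial UMIs. That for the difference of the change with Dox (0) stayed within 0 to 2, being 1 with up to 20% mitochondrial UMIs, and that for the difference between the experiments (4) within 2 to 6. Where a group is left with 1 library, that library is assumed to vary like the others. The level of a member left its 95% counting interval in 2 of 90 cases with cells of at least 10000 UMIs, in 44 with up to 20% mitochondrial UMIs (at most 2.08 times the level, for Igf1 at 17 h in Experiment 1), in 13 without the cells under 1% mitochondrial UMIs and in 51 without TMM factors, the last an alternative chosen after seeing the data. The number of members higher in Gli1-positive cells (3) was 1 at 5000 UMIs, and of members lower in G2 to M cells (2) was 1 at 3 UMIs. No call changed sign under these alternatives. Without TMM factors 4 of the single-library comparisons that were set side by side turned round: Igf2 at 30 h and Igf1r and Irs2 at 19 h against 0 h without Dox in Experiment 2, and Igf2 with against without Dox at 30 h. Among single genes 840 values kept their side of the threshold, 40 gained a call and 40 lost one. The cause of these shifts was not tested. With 14 to 35 UMIs per library, low counts limit Igf1 at 0 h.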
